A study of Mus musculus with 4 samples.

Results

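The PDGF ligand and receptor genes of the mouse are the 4 ligand genes Pdgfa, Pdgfb, Pdgfc and Pdgfd and the 2 receptor genes Pdgfra and Pdgfrb. All 6 were found by symbol among the 22913 features that the authors list, and the rule that names them uses no measured value. They were measured by RNA sequencing of dermal white adipose tissue (dWAT), the fat layer below the dermis that surrounds the lower ends of hair follicles (HFs), in C57BL/6 mice, for which the labels name no transgene. OTD and YTD are dWAT of old (18 months) and young (2 months) mice in telogen, the resting phase of the hair cycle, and OAD and YAD are dWAT of old and young mice in anagen, the growth phase, which had been induced by depilation. The methods give 20 mice per group, and each group has 1 library. The age field of the labels reads 18 months for YTD and 2 months for OAD, against the titles, which call them young and old, and the titles and the months of the methods were used. The tissue was scraped from the bottom of the HFs after subcutaneous fat and the muscle sheet had been removed, so it holds every cell type that was left on that layer. In such bulk tissue, fewer cells of a type and less RNA per cell cannot be told apart.

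PDGFs are secreted growth factors that act as dimers on 2 receptor tyrosine kinases of the cell surface. PDGF-A and PDGF-B are trimmed inside the cell by proprotein convertases, whereas PDGF-C and PDGF-D leave the cell as latent forms and become active once a protease removes their CUB domain. PDGFRA is a known marker of fibroblasts and of adipocyte precursors, PDGFRB of pericytes and other perivascular cells, and PDGF-B is a classical product of endothelial cells. In skin, PDGF-A from cells of the adipocyte lineage is known as a signal to the HF.

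Values are FPKM, fragments scaled by the listed length of the gene and by the fragments of the library, as deposited. With 1 library per group there is no replicate, no test and no p-value, and a gene was called different when its log2(FPKM + 1) differed by at least 1 between the libraries compared. For genes of low FPKM the true fold is larger than this scale shows. A feature below 1 FPKM in both libraries could not be called, so shares over all features are lower than among features that could. Of the features of 1 FPKM or more, 620 of 12982 were called for age in telogen and 208 of 13068 in anagen. Between phases 5767 of 13738 were called in young mice, 2938 of them lower. In old mice 5613 of 13847 were called, 2759 of them lower. The lowest FPKM steps put the depth at about 19400000 to 23800000 fragments per library, which is a rough estimate. The 95% intervals below were computed from it for the FPKM as deposited only. They cover counting error alone and are least certain for the short listed lengths of Pdgfa and Pdgfb. Mitochondrially encoded genes took up 44.7% (YTD) and 52.7% (OTD) of all FPKM in telogen but 14.4% (YAD) and 18.3% (OAD) in anagen, so 5 other scalings of the libraries were computed beside the deposited one. All 10 adipocyte markers were present in every library, with Fabp4, a fatty acid carrier of adipocytes, between 822 and 2880 FPKM.

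All 6 PDGF genes were expressed at 1 FPKM or more in every library, and as deposited each was lower in the anagen than in the telogen library of the same age, although Pdgfa and Pdgfra turned higher in YAD than YTD when the libraries were rescaled to TPM. Pdgfb and Pdgfa were the highest of the 6 in telogen. In anagen Pdgfa stood alone at the top. Pdgfc, Pdgfd and Pdgfra were the lowest in telogen, and Pdgfc and Pdgfd had fallen to near 1 FPKM in YAD.

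Pdgfa (ENSMUSG00000025856, GRCm38 chr5:138976014-138997370, minus strand) encodes the A chain, which binds PDGFRA. It had 20.4 FPKM in YTD, 20.2 in OTD, 13.4 in YAD and 11.4 in OAD. The telogen libraries lay above the anagen libraries, and within each phase the intervals of old and young overlapped. Pdgfb (ENSMUSG00000000489, chr15:79995900-80014808, minus strand) encodes the B chain, which binds both receptors. It had 21.1 FPKM in YTD, 23.6 in OTD, 5.28 in YAD and 6.91 in OAD. Of the 6 genes, Pdgfb differed most between the phases in young mice, and it stood above 86.7% of all features in OTD and above 61.4% in YAD.

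Pdgfc (ENSMUSG00000028019, chr3:81036416-81214040, plus strand) encodes a latent ligand of PDGFRA. It had 3.83 FPKM in YTD, 6.20 in OTD, 1.33 in YAD and 1.34 in OAD. Pdgfd (ENSMUSG00000032006, chr9:6168612-6378843, plus strand) encodes a latent ligand of PDGFRB. It had 3.88 FPKM in YTD, 6.86 in OTD, 1.29 in YAD and 1.89 in OAD. For both latent ligands OTD was the highest library, and its interval did not overlap that of YTD. In the anagen libraries these values rested on an estimated 30.1 to 50.0 fragments, the thinnest counts of the set.

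Pdgfra (ENSMUSG00000029231, chr5:75152291-75198204, plus strand) had 3.80 FPKM in YTD, 5.99 in OTD, 3.08 in YAD and 2.02 in OAD. Its receptor binds all chains but PDGF-D. The old libraries held both the highest and the lowest value, and no interval of one library overlapped that of another except those of YTD and YAD. Pdgfrb (ENSMUSG00000024620, chr18:61045150-61085061, plus strand) had 10.6 FPKM in YTD, 11.3 in OTD, 4.48 in YAD and 3.85 in OAD. Its receptor binds PDGF-B and PDGF-D. The telogen and anagen libraries lay far apart, and old and young overlapped in each phase.

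**Figure D1:**
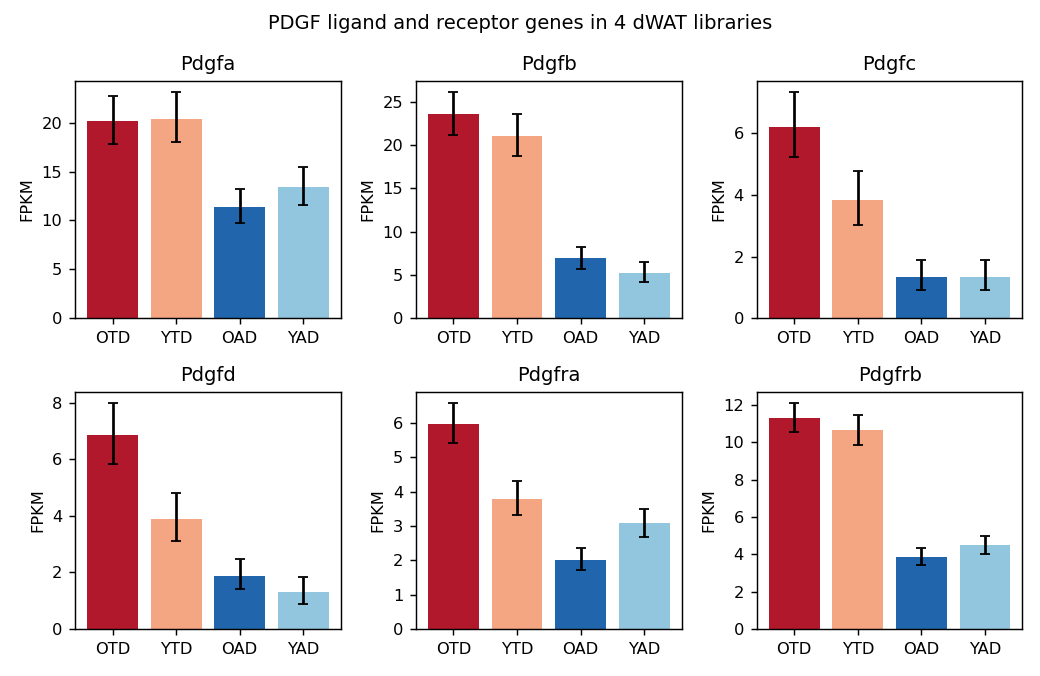
FPKM of the 6 PDGF genes in the 4 libraries (bars, 1 library each), with 95% counting intervals from the estimated depth as error bars. Pdgfra ran from 2.02 in OAD to 5.99 in OTD, with YTD at 3.80 and YAD at 3.08 between them, while Pdgfb fell from 21.1 to 23.6 in telogen to 5.28 to 6.91 in anagen.

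Ordered by level, OTD and YTD gave the same sequence of genes. It ran Pdgfb, Pdgfa, Pdgfrb, Pdgfd, Pdgfc, Pdgfra. The intervals of Pdgfb and Pdgfa overlapped, as did those of neighbours among the last genes from Pdgfd on, so that only the steps from Pdgfa to Pdgfrb and from Pdgfrb to Pdgfd exceeded counting error. In OAD the order was Pdgfa, Pdgfb, Pdgfrb, Pdgfra, Pdgfd, Pdgfc, with overlap between neighbours from Pdgfra on. In YAD Pdgfb and Pdgfrb overlapped, Pdgfra stood above Pdgfc and Pdgfd, and these last overlapped each other. FPKM is per listed length, so these orders compare levels between genes only as far as the counted reads fall within that length. How reads were counted is not given, and the intervals do not cover this.

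The genes also differ in the sequence before their starts, which is shown here as a description. Whether these sequences bear on the levels was not tested. RefSeq windows (GRCm38.p6) of 250 bases before the start were at hand for 4 of the 6 genes, Pdgfa with alternative starts, and none was used for Pdgfb and Pdgfrb. They are written 5′ to 3′ on the strand of the gene, with the matches of 6 searched motifs in capitals. The windows are chr5:138994945-138995194 (minus) for the distal Pdgfa start, inside the listed span of the gene, chr3:81036166-81036415 (plus) for Pdgfc, chr9:6168236-6168485 (plus) for Pdgfd and chr5:75152001-75152250 (plus) for Pdgfra.
Pdgfa: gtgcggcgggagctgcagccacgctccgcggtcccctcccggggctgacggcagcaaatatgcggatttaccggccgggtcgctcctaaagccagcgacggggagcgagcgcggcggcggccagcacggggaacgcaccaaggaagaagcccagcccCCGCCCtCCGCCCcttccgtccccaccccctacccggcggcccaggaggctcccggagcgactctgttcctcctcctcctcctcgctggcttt
Pdgfc: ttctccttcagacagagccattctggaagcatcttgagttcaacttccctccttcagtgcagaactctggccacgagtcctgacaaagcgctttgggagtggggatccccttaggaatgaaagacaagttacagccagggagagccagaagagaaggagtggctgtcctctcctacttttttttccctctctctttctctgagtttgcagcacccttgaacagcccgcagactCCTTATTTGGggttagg
Pdgfd: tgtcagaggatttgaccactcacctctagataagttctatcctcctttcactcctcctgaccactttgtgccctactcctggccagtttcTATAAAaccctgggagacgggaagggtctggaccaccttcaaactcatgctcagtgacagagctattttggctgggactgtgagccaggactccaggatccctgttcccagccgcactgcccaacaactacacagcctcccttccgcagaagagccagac
Pdgfra: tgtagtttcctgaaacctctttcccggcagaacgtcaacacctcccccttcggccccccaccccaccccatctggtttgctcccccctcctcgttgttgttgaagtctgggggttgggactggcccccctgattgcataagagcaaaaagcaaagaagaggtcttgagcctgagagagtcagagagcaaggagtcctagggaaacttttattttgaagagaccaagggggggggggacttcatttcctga
The motifs, searched on both strands, were the GC box (GGGCGG, in 32.7% of 32851 windows of this length), the TATA box (TATAAA, 12.4%), the CCAAT box (CCAAT, 33.8%), the AP-1 site (TGANTCA, 6.75%), the EGR site (GCGNGGGCG, 4.70%, which can share letters with a GC box) and the CArG box, the element bound by serum response factor (1.47%). The capitals in Pdgfa are 2 GC boxes on the opposite strand, the first from 93 to 88 and the second from 86 to 81 bases before the start. Those in Pdgfc are a CArG box from 17 to 8 bases before the start. In Pdgfd they are a TATAAA from 160 to 155 bases before the start. Pdgfra held none of the 6. GC content was 72.4% in this Pdgfa window, against 50.8% in Pdgfc, 53.6% in Pdgfd, 54.4% in Pdgfra and a median of 52.4% over all windows. The proximal Pdgfa window, not printed, held 1 GC box at a GC content of 66.4%. These matches describe letters in the windows, and no binding was measured.

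In telogen, where the study asked how aged dWAT differs while HFs rest, the old library had the higher value for 5 of the 6 genes and the lower for 1, with a median log2 difference of 0.35. None was called, where 3.6% of 17230 features tested were. Pdgfd differed most at 1.77-fold (counting interval 1.35 to 2.32), a log2 difference of 0.69. Pdgfc was 1.62-fold higher in OTD (1.22 to 2.17), a log2 difference of 0.58. Pdgfra was 1.58-fold higher (1.34 to 1.86), a log2 difference of 0.54. These are the 2 latent ligands and 1 receptor, and for them the interval left out a ratio of 1. For Pdgfb the fold was 1.12 (0.955 to 1.30), for Pdgfrb 1.06 (0.957 to 1.18) and for Pdgfa 0.988 (0.831 to 1.18), so as deposited counting error alone covered their differences. The median size of the log2 difference over all features with 1 FPKM or more was 0.30 as deposited. Pdgfc, Pdgfd and Pdgfra lay above and the others below it. Across the 6 scalings the log2 difference of Pdgfd stayed between 0.66 and 0.93 and that of Pdgfra between 0.52 and 0.77, while Pdgfa moved from -0.02 to 0.20. Pdgfb ran from 0.15 to 0.37 and Pdgfrb from 0.07 to 0.29, both highest without mitochondrial genes, where no intervals were computed.

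In anagen, age went with a higher value for 3 of the 6 genes and a lower one for 3, and the median log2 difference was -0.08. None was called, where 1.18% of 17613 features were. Pdgfra was 1.52-fold lower in OAD (1.23 to 1.88), a log2 difference of -0.43. As deposited, this was the only member whose interval left out a ratio of 1 in this comparison. Pdgfrb was 1.16-fold lower (0.989 to 1.36), and Pdgfa was 1.18-fold lower (0.957 to 1.47). In TPM Pdgfrb was 1.36-fold and Pdgfa 1.39-fold lower, and no intervals were computed on that scale. Pdgfb was 1.31-fold higher (0.981 to 1.75) and Pdgfd 1.46-fold higher (0.922 to 2.38), on few fragments. Pdgfc, at 1.01-fold (0.594 to 1.71), showed no difference that its counts could resolve. In all 6 scalings Pdgfra, Pdgfrb and Pdgfa were lower and Pdgfb and Pdgfd higher in OAD, whereas Pdgfc changed sign. The paper reports later anagen entry after depilation in old than in young mice, and its methods give no day of sampling. Time since depilation may therefore differ between OAD and YAD, which was not tested.

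Age thus went with opposite directions of Pdgfra in the 2 phases, 0.54 in telogen and -0.43 in anagen. The distance between these log2 differences was 0.97 for Pdgfra, against -0.18 to 0.57 for the other 5 genes. Under the other scalings it was 1.01 to 1.39 for Pdgfra and up to 0.91 (Pdgfc), 0.65 (Pdgfd) and 0.62 (Pdgfrb) for other members. With 1 library per group this difference between phases could not be tested.

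**Figure D2:**
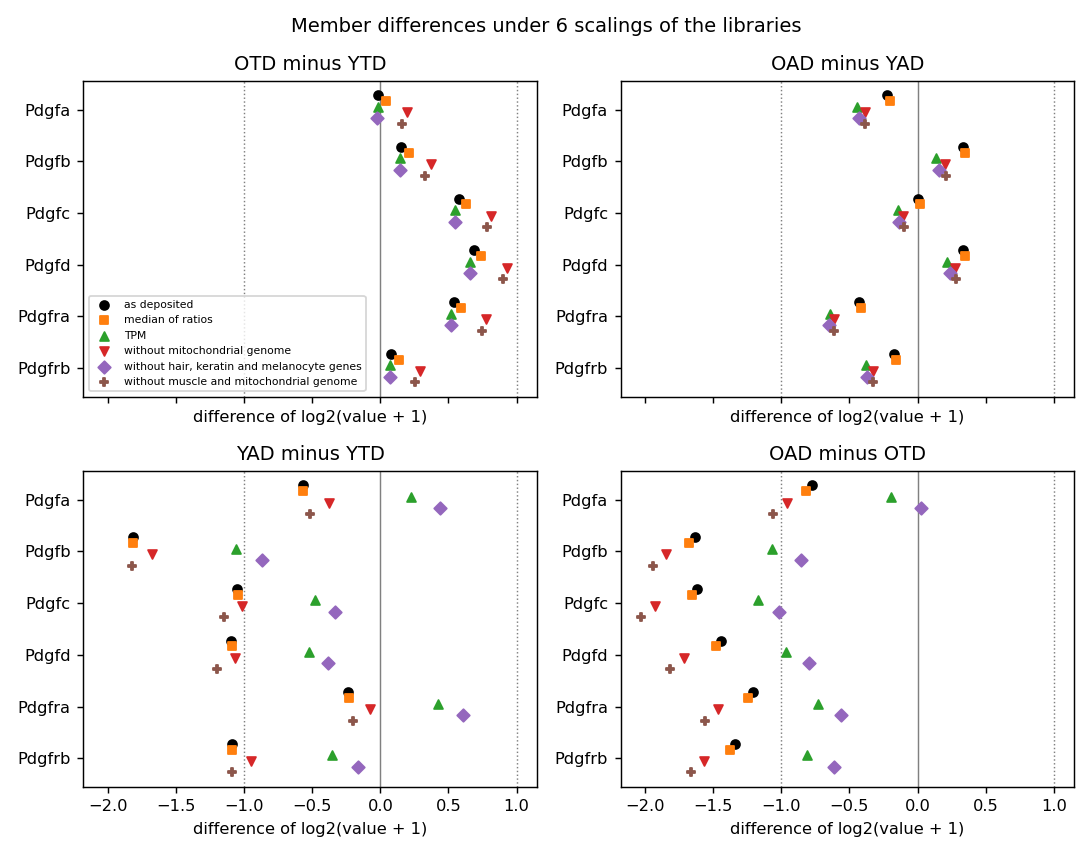
Differences of log2(value + 1) for the 6 genes in the 4 comparisons, with 1 symbol per scaling of the libraries (black circles, FPKM as deposited) and dotted lines at the threshold of 1. Pdgfra lay right of 0 in telogen (0.52 to 0.77) and left of 0 in anagen (-0.65 to -0.42) under each scaling, and the phase differences moved to the right in TPM and without hair genes.

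The comparisons of anagen with telogen use the same 4 libraries again, so their values are not independent of those for age. Anagen was induced by depilation in both ages, so hair cycle phase and depilation cannot be told apart in them. In young mice all 6 genes were lower in YAD than YTD as deposited, and 4 of the 6 were called lower, where 16.7% of 17622 features were called lower and 32.7% in either direction. Pdgfb was 3.999-fold lower (3.14 to 5.19). Pdgfd was 3.01-fold lower (1.99 to 4.74), Pdgfc 2.87-fold (1.86 to 4.54) and Pdgfrb 2.38-fold (2.08 to 2.73). Pdgfa, 1.52-fold lower (1.25 to 1.84), and Pdgfra, 1.23-fold lower (1.02 to 1.49), did not reach the threshold. The median log2 difference of the 6 genes was -1.07, beside 0.03 for all features of 1 FPKM or more.

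In old mice 5 of the 6 genes were called lower in OAD than OTD, where 15.6% of 17712 features were called lower and 31.7% in either direction. Pdgfc was 4.62-fold lower (3.15 to 6.99), Pdgfd 3.64-fold (2.63 to 5.09) and Pdgfb 3.41-fold (2.78 to 4.25). Both receptors were called, Pdgfra at 2.96-fold (2.45 to 3.57) and Pdgfrb at 2.93-fold (2.57 to 3.36). Pdgfa was 1.78-fold lower (1.46 to 2.16) and not called. The median log2 difference was -1.39, beside 0.05 for all features of 1 FPKM or more. All 6 genes lay below the median feature in both ages, with Pdgfa nearest to it in old mice and Pdgfra in young mice.

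The size of these differences depended on the scaling. In TPM the median of all features of 1 FPKM or more moved to 0.78 in young and 0.60 in old mice. On that scale Pdgfb was still lower by a log2 difference of -1.06 in young and -1.07 in old mice, but Pdgfa (0.23) and Pdgfra (0.43) were higher in YAD than YTD. These values lay below the shift of the median feature. Without hair, keratin and melanocyte genes none of the 6 was called in young mice and only Pdgfc in old mice, and Pdgfa was at 0.03 in old mice.

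Ratios of genes within a library do not depend on the scaling between libraries. Pdgfa made up 41.5% of the summed ligand FPKM in YTD, 35.5% in OTD, 63.0% in YAD and 52.9% in OAD. Pdgfb made up 42.9%, 41.5%, 24.7% and 32.1% in the same order. The ratio of Pdgfa to Pdgfb was 0.856 in OTD (0.730 to 1.003) and 0.968 in YTD (0.813 to 1.15). It was 1.65 in OAD (1.30 to 2.10) and 2.55 in YAD (1.97 to 3.36). The balance of the classical ligands thus lay towards Pdgfa in both anagen libraries, beyond counting error. Pdgfc held 10.9% of the ligand sum in OTD and 6.25% to 7.78% in the other libraries, and Pdgfd held 12.1% in OTD and 6.04% to 8.77% elsewhere.

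For the receptors, the ratio of Pdgfra to Pdgfrb was 0.357 in YTD (0.306 to 0.413), 0.530 in OTD (0.470 to 0.597), 0.687 in YAD (0.578 to 0.820) and 0.525 in OAD (0.432 to 0.640). Pdgfrb was the higher receptor gene in all 4 libraries. Young telogen had the lowest and young anagen the highest ratio, and their intervals did not overlap with each other. The old libraries lay between them at nearly the same value. Within young mice the receptor ratio was therefore higher in anagen than in telogen by more than counting error, while in old mice a difference between phases was not detectable at this depth. The summed ligand FPKM was 49.3 in YTD, 56.8 in OTD, 21.4 in YAD and 21.5 in OAD, and the summed receptor FPKM was 14.5, 17.3, 7.55 and 5.88.

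**Figure D3:**
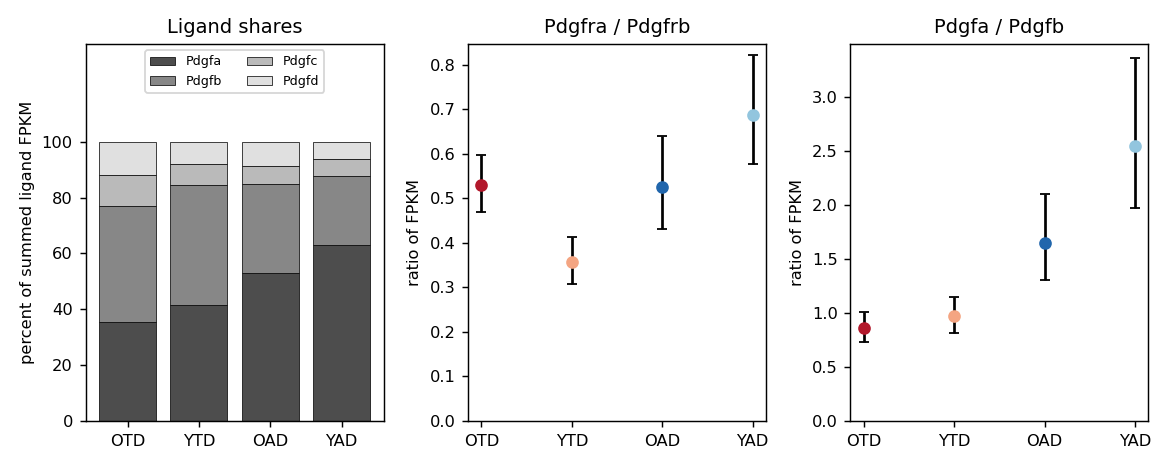
Share of each ligand gene in the summed ligand FPKM (stacked bars, percent), the ratio of Pdgfra to Pdgfrb and the ratio of Pdgfa to Pdgfb (points with 95% counting intervals) in the 4 libraries. The receptor ratio was lowest in YTD (0.357) and highest in YAD (0.687), with OTD and OAD at 0.530 and 0.525, and the ratio of Pdgfa to Pdgfb was above 1 only in anagen.

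Markers of the cell types known to express these genes moved between the libraries too. For Pdgfra, the 10 fibroblast markers such as Col1a1 and Dcn, which encode matrix proteins, were set beside it. In telogen OTD had the higher value for 8 of 10, with a median of 0.26, and in anagen OAD had the lower value for 10 of 10, with a median of -0.79. The collagen genes Col1a1 (-0.49) and Col3a1 (-0.01) were the 2 lower in OTD, and Col1a2 was at 0.02. Dcn had the largest difference in telogen, with 599 FPKM in OTD against 230 in YTD (1.38). Over the 6 scalings these medians ran from 0.26 to 0.48 and from -1.03 to -0.78. The summed fibroblast marker FPKM was 973 in YTD, 1395 in OTD, 452 in YAD and 231 in OAD, which is the same order of the libraries as for Pdgfra. That order was not particular to fibroblast markers. The 10 macrophage markers summed to 502 FPKM in YTD, 820.5 in OTD, 131 in YAD and 103 in OAD, and 9 of 10 had the higher value in OTD (median 0.30) and 10 of 10 the lower value in OAD (median -0.26). For 7 Schwann cell markers the sums were 569 in YTD, 746.5 in OTD, 133 in YAD and 105 in OAD, with 6 of 7 at the higher value in OTD (median 0.46) and 6 of 7 at the lower value in OAD (median -0.40). The 10 adipocyte precursor markers gave medians of 0.41 in telogen and 0.06 in anagen (-0.11 in TPM) over the 9 detected, and the precursor gene Dlk1 was listed at 0 in all 4 libraries. Their sum ran from 205 FPKM in YAD to 918 in OTD. The part of any of these cell types in the Pdgfra values was not tested.

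Beside Pdgfb, all 12 endothelial markers had their higher value in the old library of each phase as deposited (9 of 12 in anagen in TPM), with medians of 0.58 in telogen and 0.23 in anagen (0.05 in TPM), against 0.15 and 0.33 for Pdgfb. As deposited all 12 were called lower in anagen in both ages, with medians of -1.62 in young and -1.88 in old mice, against -1.82 and -1.64 for Pdgfb, and beside 16.7% and 15.6% of all features called lower. In TPM 4 of the 12 were called lower in young mice (median -0.85) and 10 in old mice. Without hair, keratin and melanocyte genes these counts were 1 (median -0.66) and 8, and all 12 were lower in both ages under both scalings. The summed endothelial FPKM was 459 in YTD, 700.3 in OTD, 139 in YAD and 181 in OAD. Beside Pdgfrb, the 10 pericyte and smooth muscle markers had medians of 0.36 and 0.12 for age and of -0.96 and -1.75 for phase, against 0.08, -0.17, -1.09 and -1.34 for Pdgfrb. For age in anagen 7 were higher and 3 lower as deposited, but 2 higher and 8 lower in TPM, with a median of -0.08. The median of -0.96 in young mice became 0.01 without hair, keratin and melanocyte genes. Their sum was 2056 FPKM in YTD, 1700 in OTD, 374 in YAD and 445 in OAD, with Des, which skeletal muscle also expresses, as the largest part. No marker of the endothelial, pericyte or fibroblast list was at 0 in any library.

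Other lists moved with the phase as well. Skeletal muscle markers summed to 76831 FPKM in YTD and 49903 in OTD, against 8962 in YAD and 12152 in OAD. Hair shaft markers summed to 96.2 and 33.1 FPKM in telogen and to 10042 and 9857 in anagen, young before old. Adipocyte markers, with medians of -1.74 in young and -1.40 in old mice, were also lower in anagen, whereas 7 of 10 dermal papilla markers were called higher in each age, with list medians of 1.63 and 1.54. Over all features, 2829 of 17622 were called higher in anagen in young and 2854 of 17712 in old mice. Sox18, which endothelial cells also express, was called lower in both ages (-1.19 and -1.71) and Prom1 in old mice (-1.33). The 7 markers of platelets, which carry PDGF, summed to 28.9 to 75.1 FPKM. Pf4 made up most of this in telogen, with 63.4 FPKM in YTD and 72.3 in OTD, against 14.0 in YAD and 8.84 in OAD, whereas Gp1bb was at 0.814 and 0.467 in telogen and at 12.9 and 20.02 in anagen, young before old. Gp6 was listed at 0 in every library. What the makeup of the tissue contributed to the PDGF values was not tested.

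**Figure D4:**
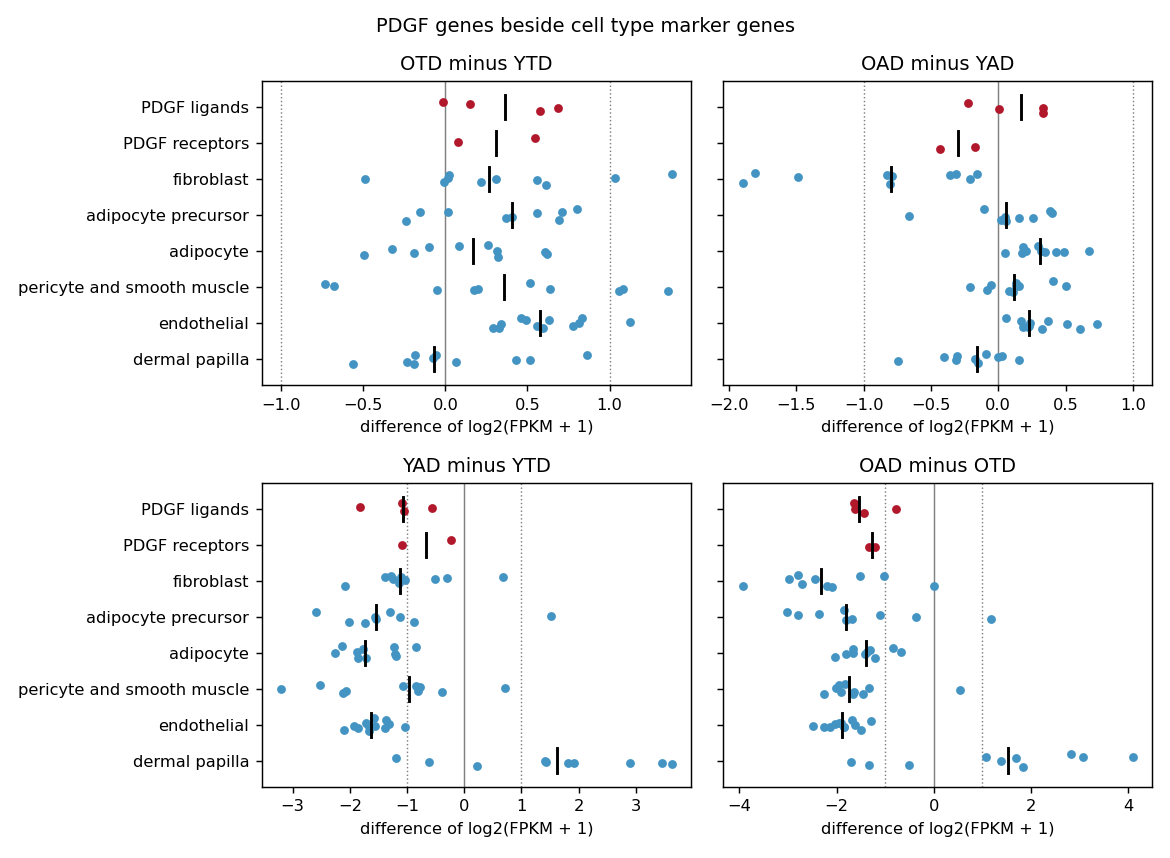
Differences of log2(FPKM + 1) for the PDGF genes (red) and for 6 lists of cell type markers (blue), 1 point per gene, with the median of each list as a black bar and dotted lines at the threshold of 1. Fibroblast markers had a median of 0.26 in telogen and -0.79 in anagen for old against young, and all 12 endothelial markers were called lower in anagen as deposited, of which 4 in young and 10 in old mice stayed called in TPM.

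Genes with the most similar pattern over the 4 libraries were found among 13567 genes by the root mean square difference of log2(FPKM + 1) after centring each gene on its mean. With 4 libraries many genes come close by this measure, and between 33 (Pdgfra) and 207 (Pdgfa) lay within 0.1 of a member. For Pdgfa the nearest were Appl1 (0.03), the clock gene Per2 (0.03) and Uggt2 (0.03). For Pdgfb they were the autophagy receptor gene Sqstm1 (0.04), Rras (0.05) and Trim34a (0.05). Fbln5, which encodes an elastic fibre protein, was nearest to Pdgfc (0.03), before Shisa5 and Pid1 (0.04 each). Pdgfd was closest to the phosphodiesterase gene Pde8a (0.03), the chemokine gene Cxcl9 (0.05) and the TNF receptor gene Tnfrsf1b (0.05). Pdgfra was closest to the mannosidase gene Man1c1 (0.04), Rapgef3 (0.05) and the Notch target Hey1 (0.05), and Pdgfrb to Tnnt2 (0.01), Enox2 (0.02) and Tlr7 (0.03). Among the members themselves Pdgfc and Pdgfd were the closest pair (0.13), and Pdgfb and Pdgfra the farthest apart (0.59).

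The wider pathway was followed in lists of genes from ligand processing to the transcriptional response. Of 89 list genes, related receptor families included, 8 were called for age in telogen (8.99%, beside 3.6% of all features) and 2 for age in anagen (2.25%, beside 1.18%). These lists were chosen with earlier results of these data known, and 5 of the 8 were growth factor response genes. The shares for age are therefore not a result about the pathway. Between phases 31 were called in young mice (34.8%, beside 32.7%) and 28 in old mice (31.5%, beside 31.7%). Of the features of 1 FPKM or more, which alone could be called, 5767 of 13738 were called in young and 5613 of 13847 in old mice. These are larger shares than among the list genes, so the phase counts are not a result about the pathway either. Each called list gene kept its direction under all 6 scalings, and 7, 1, 16 and 10 of them stayed past the threshold under all 6. Among 8 proteases that process the ligands none was called for age in either phase. Plau (urokinase, which can activate PDGF-D) had 14.4 FPKM in OTD and 6.88 in YTD, a log2 difference of 0.96 short of the threshold. St14 (matriptase), the highest of the list on average, had 4.20 FPKM in YTD, 1.61 in OTD, 121 in YAD and 129 in OAD, and was the only protease called between the phases, at log2 differences of 4.55 in young and 5.64 in old mice. For age in telogen it was at -0.996, just short of the threshold. It is a known epithelial gene, and markers of epidermal and follicle epithelium summed to 134 FPKM in YTD and 92.9 in OTD, against 1715 in YAD and 2435 in OAD. Plat (tissue plasminogen activator, which can activate PDGF-C) had 3.76 FPKM in YTD, 6.31 in OTD, 7.42 in YAD and 6.25 in OAD.

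Of 10 genes listed as extracellular and membrane partners, 2 were called for age in telogen, beside 3.6% of all features. Both were higher in OTD than YTD. They were the matrix glycoprotein gene Thbs1 (12.7 against 3.59 FPKM, a log2 difference of 1.58) and Nt5e (10.6 against 4.62, 1.04), which encodes the ectonucleotidase CD73. No binding of the listed proteins to PDGF was measured. Pdgfrl, which encodes a soluble protein resembling the PDGF receptors, was called lower in OAD than YAD, with 0.411 against 1.97 FPKM, a log2 difference of -1.07. It was also lower in anagen than telogen, with log2 differences of -1.02 in young and -2.29 in old mice. Sparc, whose matrix protein binds PDGF-B, was the highest of the list with 823 FPKM in YTD, 643 in OTD, 246 in YAD and 195 in OAD. It was called lower in anagen, at -1.74 in young and -1.72 in old mice, as was the coreceptor gene Nrp1 at -1.17 and -1.64. Sparc and Nrp1 in both ages and Pdgfrl in young mice did not stay past the threshold under all 6 scalings. Thbs1 was called higher in YAD than YTD at 1.26.

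Inside the cell, none of 20 receptor adaptors and enzymes was called for age in either phase, with medians of 0.12 in telogen and -0.05 in anagen. Over all features 3.6% were called for age in telogen and 1.18% in anagen. At such shares a list of 20 genes would hold few calls, so their absence is not a result about the list. Crk was the highest of them on average, with 41.8 FPKM in YTD, 48.6 in OTD, 34.1 in YAD and 33.4 in OAD. Between phases 5 of 20 were called in each age, a lower share than over all features (32.7% in young, 31.7% in old mice), so the following log2 differences describe single genes and not the list. Vav3 was higher in anagen by 2.59 in young and 2.29 in old mice, and the kinase gene Src by 1.29 and 1.502. Nck1 was lower by -1.19 and -1.91, and Pik3r1, a regulatory subunit of PI3K, by -1.498 and -1.14. Fyn was called higher in young (1.03) and Pik3r2 in old mice (1.13). Pik3r1 in both ages, Nck1 in young mice and Pik3r2 in old mice did not stay past the threshold under all 6 scalings.

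Of 16 genes of the kinase cascade and STATs, Hras was called lower in OTD than YTD, with 51.2 against 109.7 FPKM, a log2 difference of -1.09 that fell short of the threshold under some scalings. Hras was the only 1 of the 16 called for age in telogen, beside 3.6% of all features, and none was in anagen, beside 1.18%. Hras was the highest of this list on average and was called higher in OAD than OTD at 1.83. Between phases 6 of 16 were called in young and 7 of 16 in old mice, beside 32.7% and 31.7% of all features. Akt2, Stat3, Stat5a and Stat5b were called lower in anagen in both ages, at log2 differences of -1.99, -1.21, -1.26 and -2.09 in young and at -1.05, -1.04, -1.23 and -1.53 in old mice. Of these calls, only that of Stat5b in young mice stayed past the threshold under all 6 scalings. Under the scaling that shrank them most, Akt2 was at -0.94 in young and -0.21 in old mice, and Stat3 at -0.21 and -0.22. Braf was higher by 2.01 and 1.86. No negative regulator, of 12, was called for age, beside 3.6% of all features in telogen and 1.18% in anagen. Acp1 was the highest of them on average, with 21.7 to 24.2 FPKM over the 4 libraries. Between phases Cbl (1.11) and Dusp6 (1.47) were called higher in young mice, Ptpn1 higher in young (1.16) and old mice (1.01), and Grb10 lower in both (-1.53 and -1.39). Grb10 in both ages and Ptpn1 in old mice did not stay past the threshold under all 6 scalings.

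The 10 growth factor response genes are induced by many signals other than PDGF, and this list was chosen with earlier results of these data known. In OTD against YTD 5 of 10 were called higher, beside 3.6% of all features called in either direction, with a list median of 1.08. With log2 differences in parentheses, Fos was at 131 against 12.3 FPKM (3.31), Egr1 at 71.0 against 7.25 (3.13), Junb, the highest of the list on average, at 119 against 19.5 (2.55), Ier2 at 54.9 against 16.0 (1.72) and Myc at 15.9 against 5.72 (1.33). In OAD against YAD Fos alone was called, with 18.5 against 7.68 FPKM (1.17, or 0.98 under the scaling that lowered it most), and the list median was 0.05. Between phases Junb (2.97), Myc (2.36), Egr1 (2.19), Ier2 (2.19) and the cyclin gene Ccnd1 (1.54) were called higher in young mice, and Fos was called lower in old mice (-2.76).

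**Figure D5:**
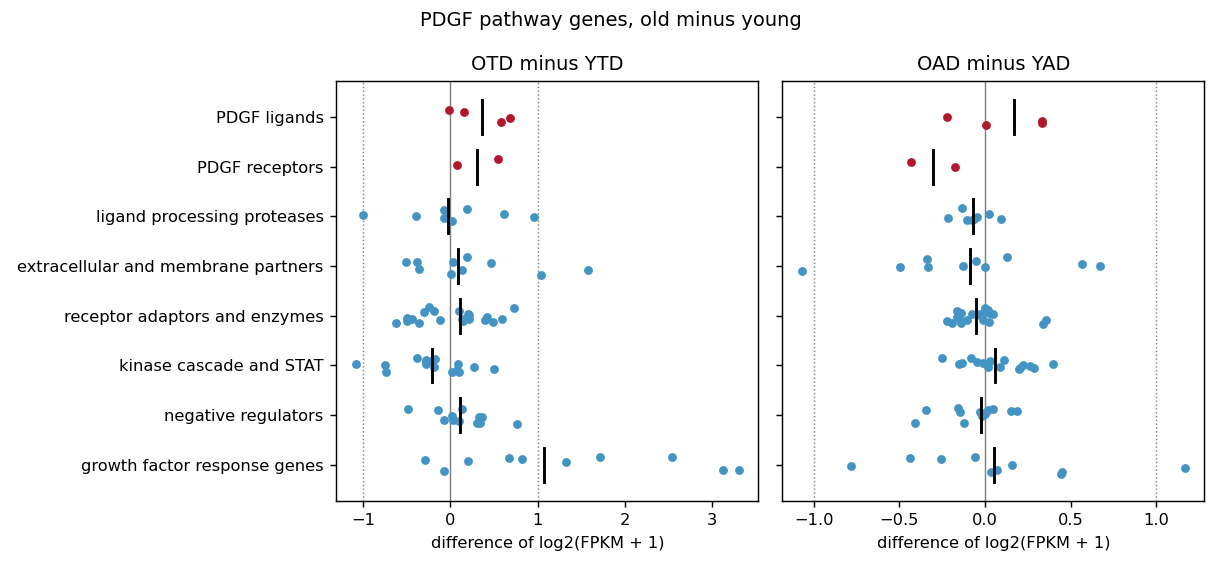
Differences of log2(FPKM + 1) between old and young for the PDGF genes (red) and 6 lists of pathway genes (blue), 1 point per gene, with list medians as black bars and dotted lines at the threshold of 1. In telogen the growth factor response genes had a median of 1.08 and Thbs1, Nt5e and Hras lay outside the threshold, and in anagen only Pdgfrl and Fos did.

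Antisense or nested genes lie over some of the members in the GENCODE annotation. Exons of 6330403L08Rik overlap those of Pdgfa, exons of Gm16000 those of Pdgfc, and exons of Gm42802, Gm42803 and Mir7025 those of Pdgfra. Whether the counting used strand is not given in the sources used here, so reads of these transcripts cannot be told apart from those of the PDGF genes.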

How the data were processed

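RNA sequencing of dWAT gave 4 libraries, 1 per group, grouped by their titles. The authors deposited FPKM per gene with positions on GRCm38. Per the labels, bcl2fastq and TopHat2 were used (versions not given in the sources used here). The counting tool, strand setting and annotation are not given in the sources used here. Of the listed lengths 97.0% are multiples of 3, as coding lengths are. Symbols were found for 21750 of 22166 Ensembl identifiers, and 747 loci lie outside the annotation. Differences are those of log2(FPKM + 1), called at a size of 1 or more. Depth came from the mode of low values of FPKM times length in features of 2000 to 4000 bp. Exact 95% Poisson and conditional binomial intervals used the fragments estimated from it. Steps were tested on simulated data. Members and lists were chosen with earlier results of these data known. The genes named are the 6 members, list genes called with 1 FPKM or more, the highest gene of each list on average, and the 3 most similar genes per member. A gene that this rule names is not reported here. Plat and Plau, and single markers, were chosen after their values were seen. Alternatives were pseudocounts of 0.1 and 0.01, a filter at 1 FPKM, thresholds of 1.5 and 0.58, and 5 scalings: median of ratios over 11181 genes, TPM, and rescaling without mitochondrial, without hair, keratin and melanocyte, or without muscle and mitochondrial genes. Promoter windows are from RefSeq. Python 3.11.15, numpy 2.4.6, pandas 2.3.3, scipy 1.17.1 and matplotlib 3.10.9 were used.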

Additional observations from a re-analysis of the deposited data

Results flagged for a closer look

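Pdgfra, the receptor gene known from fibroblasts and adipocyte precursors, differed between old and young in opposite directions in the 2 phases, by 0.54 in telogen (5.99 FPKM in OTD, 3.80 in YTD) and by -0.43 in anagen (2.02 in OAD, 3.08 in YAD). The difference between the phases, 0.97 as deposited and 1.01 to 1.39 under the 5 other scalings, was not tested, since each group has 1 library. Over the other scalings this distance reached 0.91 for Pdgfc. Most markers of 3 cell types moved in the same way. OTD had the higher value for 8 of 10 fibroblast, 9 of 10 macrophage and 6 of 7 Schwann cell markers, and OAD the lower value for 10 of 10, 10 of 10 and 6 of 7. The adipocyte precursor markers did not follow Pdgfra in anagen as deposited. Of the 9 detected, 7 were higher in OTD and 7 in OAD, with medians of 0.41 and 0.06 (-0.11 in anagen in TPM). The part of these cell types in the Pdgfra values was not tested.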

How the results depend on the processing

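Of 192 member differences recomputed under the alternatives, 164 were counted as close to the deposited values. These 164 include all differences under the filter at 1 FPKM. Every member passes that filter in every library, so it could change no member difference and no member count. In 5 pairs of gene and comparison 12 differences changed sign, all named in the report. Closeness was not judged by sign, and some of these 12 are among the 164. The 164 is therefore not a measure of stability. The count of members called in telogen for age was 1 at a threshold of 0.58. In young mice the phase count of 4 became 1 in TPM, 0 without hair, keratin and melanocyte genes and 1 at a threshold of 1.5. In old mice the count of 5 became 2, 1 and 2 under the same settings. The other 33 of 40 member counts did not move by over 1.5 times, those under the filter at 1 FPKM by construction. Taken as fragments instead of per length, the ligand shares were 29.1% Pdgfa, 14.6% Pdgfc and 17.3% Pdgfd in OTD and 35.5%, 10.9% and 11.8% in YTD. They were 45.9% Pdgfa and 13.3% Pdgfd in OAD and 56.2% and 9.43% in YAD. Shorter features then count for less, by construction. Of 320 list medians 158 moved by over 0.1. Counts over all features in telogen for age (620) became 2144 and 3445 at pseudocounts of 0.1 and 0.01, 952 without muscle and mitochondrial genes, and 141 and 2797 at thresholds of 1.5 and 0.58. In anagen (208) they became 1109, 2435, 319, 58 and 895, and 315 without mitochondrial genes. Between phases, 5767 in young and 5613 in old became 9761 and 9616 at a pseudocount of 0.01, 3280 and 3178 at a threshold of 1.5, and 9261 and 9047 at 0.58. The cause of these moves was not tested. No paired analysis was possible because each group has 1 library and no replicate numbers. Depth limits Pdgfc and Pdgfd in anagen most, and no value here carries an error between animals.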

Other observations

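Families related to the PDGF genes showed phase differences of their own. Of the 8 VEGF ligand and receptor genes, which belong to the same superfamily of growth factors and drive the growth of blood and lymph vessels, all 8 were lower in anagen in both ages as deposited, with medians of -0.95 in young and -1.33 in old mice and of -0.38 and -0.82 in TPM. Vegfb was the highest, with 102.6 FPKM in YTD, 73.3 in OTD, 25.4 in YAD and 28.1 in OAD. It was called lower in young mice together with the receptor genes Flt1 and Kdr, and in old mice Vegfc, Vegfd and Flt4 were called as well. These were 3 of 8 in young and 6 of 8 in old mice, beside 16.7% and 15.6% of all features called lower. None of these calls stayed past the threshold under all 6 scalings. None of the 8 was called for age in either phase, beside 3.6% of all features in telogen and 1.18% in anagen.

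Among receptors of the PDGF receptor class and their ligands, Kit, known from melanocytes and mast cells, was called higher in anagen, with 1.02 FPKM in YTD, 1.06 in OTD, 11.6 in YAD and 9.74 in OAD. Melanocyte markers summed to 14.6, 12.4, 749.8 and 454 FPKM in the same libraries. Csf1 and its receptor gene Csf1r, known from macrophages, were called lower in anagen, Csf1r by 3.02-fold in young and 5.16-fold in old mice. Of the Csf1 and Csf1r calls, only that of Csf1r in old mice stayed past the threshold under all 6 scalings. Kitl was the highest of these genes on average, with 15.4 to 22.4 FPKM over the 4 libraries, and was not called in any comparison.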
